A study of Mus musculus with 12 samples.

Results

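4930558C23Rik (ENSMUSG00000105734) is a protein-coding gene on the minus strand of mouse chromosome 3, from 95386461 to 95402841 (GRCm38, GENCODE release M21). It is 1 of 35666 genes listed in the deposited table. It was chosen because its normalized counts were far higher in knockout (KO) than in heterozygous (het) libraries, so its own difference between genotypes, and that of the transposable element (TE) copy upstream of it, are described here and not tested. Around it, 12 listed genes within 100 kb and the 56 TE copies listed in a window from Setdb1 to Arnt were chosen by position, the first beginning at 95343532 and the last ending at 95449722.

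RNA came from gonocytes, the male germ cells of the late fetal and newborn testis, sorted from the testes of mice with the Mvh-Venus transgene. The libraries used are 3 from Morc1 (+/-) and 3 from Morc1 (-/-) mice at postnatal day 0 (P0), written het and KO below. Both genotypes carried the transgene, and the controls carried 1 disrupted Morc1 allele. The labels do not say whether a library came from 1 animal or from pooled animals, so p-values measure the spread between these libraries. The labels also list 6 samples at postnatal day 3, which were not analysed here.

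MORC1 is a germ cell ATPase known for the silencing of transposable elements in male germ cells, at a stage when DNA methylation is being laid down again. Transposable elements are repeated sequences that once moved by copying, and some carry promoters that can start transcription of neighbouring DNA. 4930558C23Rik has the synonym Ctxnd2 in RefSeq. Cortexins are small membrane proteins first described in brain, and no role of this gene in germ cells is assumed here.

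The annotated transcript of 731 bases has 2 exons. Exon 1 (95402706 to 95402841, 136 bases) is untranslated, and exon 2 (95386461 to 95387055, 595 bases) holds the whole reading frame. The intron between them is 15650 bp long. The reading frame is shown because it identifies the product, with its start and stop codons in capitals, as read from the GENCODE transcript (chr3:95386816-95386995, GRCm38, minus strand). It holds 59 codons before the stop.

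4930558C23Rik coding sequence: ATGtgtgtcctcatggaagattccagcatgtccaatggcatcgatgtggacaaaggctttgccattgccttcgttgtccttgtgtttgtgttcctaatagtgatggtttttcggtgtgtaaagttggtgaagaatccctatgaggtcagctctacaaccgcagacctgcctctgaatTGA

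The 250 bases before the RefSeq start of the gene (95402832) are shown beside those of its neighbour Setdb1, since CpG dinucleotides, in capitals, are the sites of DNA methylation. Both come from RefSeq on GRCm38.p6 and read 5′ to 3′ on the minus strand. They cover chr3:95402833-95403082 and chr3:95357203-95357452, and the end of the first lies within GENCODE exon 1.

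4930558C23Rik: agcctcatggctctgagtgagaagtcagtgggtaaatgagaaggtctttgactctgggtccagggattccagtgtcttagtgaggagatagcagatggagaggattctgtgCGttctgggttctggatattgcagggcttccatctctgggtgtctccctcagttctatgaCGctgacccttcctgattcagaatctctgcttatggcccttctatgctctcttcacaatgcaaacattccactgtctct
Setdb1: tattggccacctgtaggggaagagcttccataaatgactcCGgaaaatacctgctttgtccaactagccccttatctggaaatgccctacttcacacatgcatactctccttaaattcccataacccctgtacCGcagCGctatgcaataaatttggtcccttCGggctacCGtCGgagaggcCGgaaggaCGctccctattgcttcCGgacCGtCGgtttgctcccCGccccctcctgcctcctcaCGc

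The 4930558C23Rik stretch held 2 CpG dinucleotides, against 13 before Setdb1, 12 before Arnt and 0 before Ctsk. Across 32851 RefSeq promoter stretches of the same length the median was 6, and 29.0% had as many CpG dinucleotides as 4930558C23Rik or fewer. Both strands were searched for 3 promoter motifs, which do not overlap each other in letters: the TATA box as TATAAA, the CCAAT box as CCAAT and the GC box as GGGCGG. The 4930558C23Rik stretch held none of them, and they occur in 12.4%, 33.8% and 32.7% of the stretches. No listed TE copy overlapped either exon, and the listed copy nearest upstream of the start began 2781 bp away. The sequences of the TE copies are not shown because no genome sequence was used here.

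As a check of the labels, Morc1 was measured first, in normalized counts, which are reads divided by a library's size factor. Its level was 6286 ± 1874 in het and 1499 ± 255 in KO (SD, n = 3), and the genotypes did not overlap. Germ cell identity was checked with 10 markers such as Ddx4 and Dazl. Their summed level was 130590 to 202472 normalized counts in het and 135213 to 204303 in KO. One library stood apart: the 5 Leydig cell markers summed to 24921 in het replicate 3 and to between 510 and 1079 in the other libraries. The 7 Sertoli cell markers summed to 17536 to 37259 in het and 12581 to 18099 in KO. For 3 of the 7, Sox9, Amh and Clu, the KO libraries all lay below the het libraries, which 5.57% of all tested genes also showed. The lists for meiotic cells, spermatids, myoid and stromal cells, endothelium and blood overlapped between genotypes in their sums. Of their members Acta2, a smooth muscle actin, was separated, with 844 to 894 normalized counts in het and 914 to 1307 in KO. Of all tested genes, 7.17% had every KO library above every het library. No marker was at 0 in every library. Of 42 tested markers over all lists, limma and edgeR called 0, 3 had an unadjusted limma p under 0.05, and DESeq2 called Clu lower. Over all 26005 tested genes limma called 112 higher and 11 lower, edgeR 121 and 8, and DESeq2 400 and 65. The counts of called markers are near that background. The share of all genes at that unadjusted p is not given here. The part of other cell types in the results below was not tested. Values without het replicate 3 are given for 4930558C23Rik, the upstream copy, the counts of calls, the neighbours, the called copies and the stretches of the window.

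4930558C23Rik was low in every het library and high in every KO library. Het replicates 1, 2 and 3 gave 42, 33 and 35 reads, or 40.0, 31.9 and 34.1 normalized counts. KO replicates 1, 2 and 3 gave 1371, 1518 and 1885 reads, or 1357, 1568 and 1847 normalized counts. The lowest KO library was 33.9-fold above the highest het library, and the genotypes did not overlap. In bulk RNA, more cells that express a gene and more RNA per cell cannot be told apart.

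The means were 35.4 ± 4.22 (SD, n = 3) in het and 1591 ± 246 (SD, n = 3) in KO, a ratio of 45.0. On the log2(value + 1) scale the difference was 5.45, with a pooled SD of 0.20 within genotypes, and it was 5.43 without het replicate 3. Replicates thus lay close together, with coefficients of variation of 11.9% in het and 15.5% in KO. Among 26005 tested genes the difference ranked 19 from the top, which places it in the contrast and supports nothing further.

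**Figure D1:**
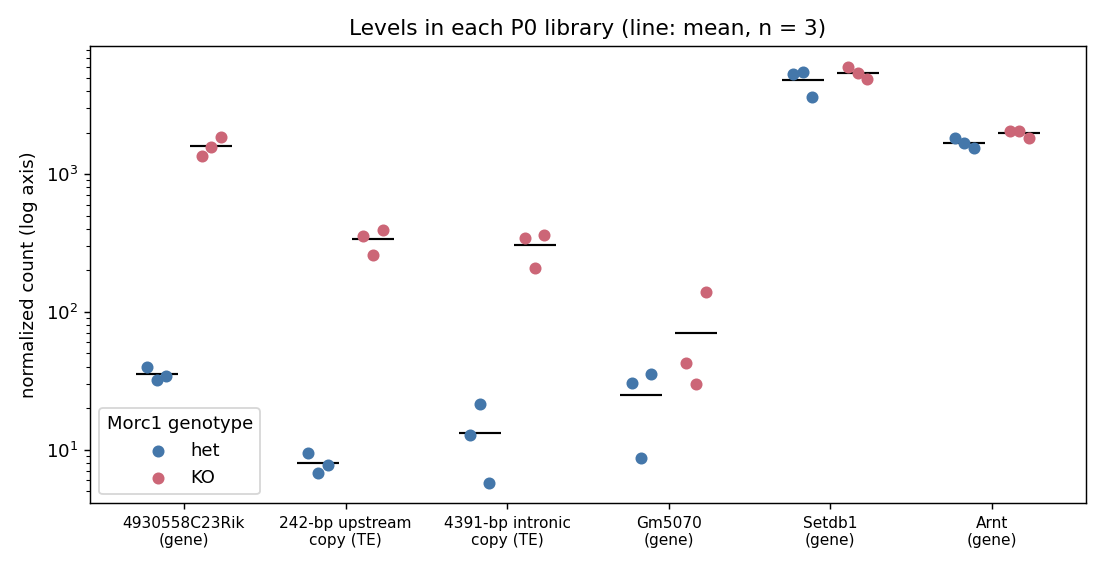
Normalized counts on a log axis for 3 het and 3 KO libraries, with a line at each mean, for 4930558C23Rik, a pair of TE copies and 3 neighbouring genes. 4930558C23Rik and both copies are separated between genotypes, while Gm5070 and Setdb1 overlap and Arnt is separated by a small margin.

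In reads per kb of exon per 1000000 gene reads, the level of 4930558C23Rik was 1.61 ± 0.207 in het and 70.4 ± 10.8 in KO (SD, n = 3). In het, 42.1% of the tested genes with a known exon length had a lower level per length. In KO the share was 97.1%. Setdb1, which encodes an H3K9 methyltransferase, had the highest level per length of the listed neighbours in both, at 23.2 ± 3.77 in het and 25.8 ± 2.81 in KO (SD, n = 3). In het 4930558C23Rik lay far below Setdb1 and close to Anxa9, whose het libraries had 1.49, 2.06 and 0.953, within their spread. In KO it lay above Setdb1.

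The genes within 100 kb were then examined as controls of position. GENCODE lists 13 of them. The pseudogene Gm42578 was not analysed here, and of the other 12, 11 had a mean of at least 10 and were tested. With limma, 0 were called higher and 0 lower at an adjusted p under 0.05, and 0 had an unadjusted p under 0.05. How many of all genes had such an unadjusted p is not given here, so nothing is read from that count. The counts of calls were also 0 with edgeR and with DESeq2, and without het replicate 3. Over all 26005 tested genes limma called 0.431% higher and 0.0423% lower, so a count of 0 among 11 is near that background. The median log2 difference of the 11 genes was 0.19, against -0.02 over all tested genes.

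Setdb1, downstream of the 3′ end of 4930558C23Rik by 29259 bp, had 5353, 5515 and 3633 normalized counts in het and 6025, 5437 and 4908 in KO. The values overlapped between genotypes (limma log2 difference 0.19, SE 0.22, adjusted p 0.929), and without het replicate 3 the difference was 0.001. Arnt, which encodes a partner of the aryl hydrocarbon receptor and of hypoxia-inducible factors and begins 31547 bp upstream, had 1817, 1692 and 1559 in het and 2066, 2062 and 1833 in KO. Every KO library was above every het library, by a narrow margin, and the limma log2 difference was 0.23 (SE 0.20, adjusted p 0.896), or 0.18 without het replicate 3. Arnt was the only tested neighbour with this separation, which 7.17% of all tested genes showed.

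The other protein-coding neighbours were Cers2, a ceramide synthase, Mindy1, a deubiquitinase, Anxa9, an annexin, and Ctsk, a cysteine protease of osteoclasts. Their log2 differences were 0.02, -0.03, 0.61 and 0.38, with limma adjusted p-values of 0.993 for the first pair, 0.862 for Anxa9 and 0.943 for Ctsk. Without het replicate 3 they were -0.17, -0.23, 0.27 and -0.13. Mindy1, Cers2 and Ctsk changed sign when single libraries were left out. The noncoding neighbours 6330562C20Rik, Gm4349 and Gm42672 had log2 differences of 0.18, -0.10 and -0.04, and they too changed sign. Without het replicate 3 they were 0.62, 0.12 and -0.19. Gm37500 had a mean under 10 and was not tested.

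A pair of processed pseudogenes upstream had the largest differences among the tested neighbours. Gm5070 (95410346 to 95411207), which begins 7505 bp upstream, had 30.5, 8.69 and 35.1 normalized counts in het and 42.5, 30.0 and 139 in KO. Gm9173 (95415026 to 95415425) had 9.54, 2.90 and 0 in het and 8.91, 14.5 and 32.3 in KO. Both overlapped between genotypes, with their highest value in KO replicate 3. Their limma log2 differences were 1.37 (SE 0.71, adjusted p 0.804) and 2.32 (SE 1.10, adjusted p 0.771). Without single libraries Gm5070 ran from 0.72 (without KO replicate 3) and 0.77 (without het replicate 2) to 1.81. Gm9173 ran from 1.43 (without het replicate 3) to 3.12, and Gm5070 was 1.72 without het replicate 3. Pseudogenes resemble their parent genes, so how their reads were assigned is uncertain.

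The upstream TE copy is 242 bp long and lies on the minus strand, the strand of the gene, from 95406393 to 95406634. It begins 3552 bp upstream of the GENCODE start and overlaps no gene of GENCODE or of RefSeq. It was taken as the copy with the highest KO mean within 10 kb upstream, since no copy covers the start. Its 9, 6 and 8 reads in het replicates 1, 2 and 3 made 9.49, 6.73 and 7.67 normalized counts. The KO replicates gave 375, 337 and 459 reads, or 358, 261 and 393 normalized counts.

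As for the gene, every KO library was far above every het library. The means were 7.96 ± 1.40 and 337 ± 68.3 (SD, n = 3), a ratio of 42.3, and the log2 difference was 5.23, or 5.21 without het replicate 3. The values of the TE table were scaled by factors of that table. Scaled by the factors of the gene table, the copy had 371, 348 and 450 normalized counts in KO and its log2 difference was 5.55. The order of the KO libraries differed between gene and copy: KO replicate 1 was lowest for the gene, and KO replicate 2 for the copy, under either scaling.

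Reads on the upstream copy and reads on the exons stood in a like ratio in both genotypes. Per 100 reads of 4930558C23Rik the copy had 21.4, 18.2 and 22.9 reads in het and 27.4, 22.2 and 24.4 in KO. The means were 20.8 ± 2.40 and 24.6 ± 2.59 (SD, n = 3), and the libraries overlapped between genotypes. The het values rest on 6 to 9 reads of the copy, so their precision is low. The ratio was not tested, since both of its terms come from the contrast that chose the gene.

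Density in KO was highest at the upstream copy among the 56 copies of the window. This follows in part from its choice by the highest KO mean within 10 kb upstream. In reads per kb per 1000000 gene reads the upstream copy stood at 52.0 ± 5.67 in KO (SD, n = 3), which was 73.8% of the density of the exons. The 301-bp copy beside it (95406687 to 95406987, plus strand) had 8.91 ± 0.679, and the 317-bp copy between it and the gene (95405622 to 95405938, plus strand) had 4.69 ± 1.57 (SD, n = 3). The 4391-bp copy in the intron (95396355 to 95400745, plus strand) had 2.56 ± 0.411 (SD, n = 3), which was 3.63% of the exon density. In het the densities were 1.02 ± 0.227 for the upstream copy and 0.0880 ± 0.0423 for the intronic copy (SD, n = 3). How reads that partly overlap a feature were counted is not given in the sources used here, and densities of short features were not corrected for it.

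**Figure D2:**
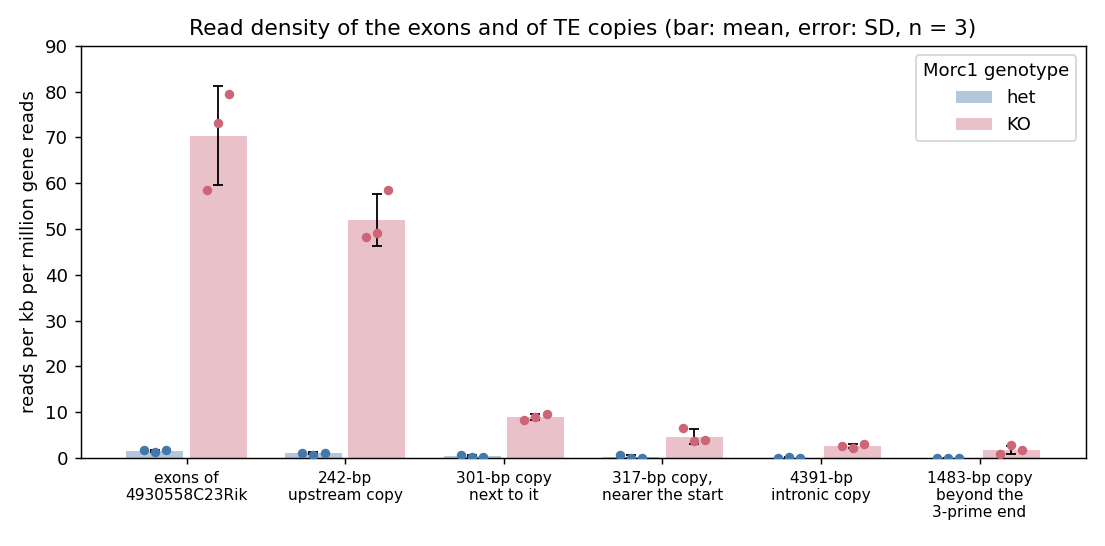
Reads per kb per 1000000 gene reads for the exons of 4930558C23Rik and 5 TE copies; bars are means of 3 libraries, errors are SD and points are libraries. In KO the upstream copy, chosen by its KO mean, stands at 52.0 beside 70.4 for the exons, and the other copies lie at 8.91 or below.

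Among 49781 tested copies of the genome, the upstream copy ranked 24584 by density in het and 357 in KO. Its rank by log2 difference was 219. These ranks describe it and rest on the contrast in whose view it was picked.

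The long copy of the intron covers 28.1% of that intron. It had 12.7, 21.3 and 5.75 normalized counts in het and 344, 207 and 361 in KO, without overlap. Its limma log2 difference was 4.54 (SE 0.50, adjusted p 0.000398). Unspliced RNA of the gene and other RNA across the copy cannot be told apart in these counts, so p-values of intronic copies add no evidence independent of the gene. Summed over the 7 copies in the intron, there were 42.9, 75.8 and 17.1 reads per 100 reads of the gene in het and 33.5, 22.2 and 28.4 in KO. These ratios overlapped between genotypes and varied widely in het, where few reads were counted.

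Beside the upstream copy, the window holds 55 listed copies, of which 20 had a mean of at least 10 and were tested. Limma called 9 of the 20 higher in KO and 0 lower, and 0 were lower at an unadjusted p under 0.05. How many of all copies were lower at that unadjusted p is not given here. The intron held 3 of the 20 tested copies and 2 of the 9 calls. The window was drawn around a gene chosen for its rise in KO, so its counts are not independent of that choice. Over all tested copies 15.6% were called higher and 0.735% lower, which is 7745 and 366 copies. After quantile normalization, which moved the median log2 difference of all tested copies from 0.03 to -0.41, these counts were 5780 and 1034, and 8 copies of the window were called higher. With the gene size factors, which moved it to 0.34, they were 9002 and 187, and 10 of the window. Of the 20, 11 had a het mean under 10 and so could pass the filter only with high KO values, and 7 of the 9 calls were among these. Over all 55 copies with no filter, 24 had every KO library above every het library, as did 9.24% of the listed copies of the whole table. Of the 24, 6 lay in the intron. The median log2 difference of the 55 was 1.60, against -0.07 over all listed copies, and it was 1.62 without het replicate 3. Fitted with no filter, 13 of the 55 were called higher, against 2.99% of all listed copies. The count of 9 was also 9 with edgeR and without het replicate 3. It fell to 6 without het replicate 1 or without het replicate 2, while requiring a mean of at least 50 left 2. The counts over all tested copies moved too, from 7745 to 6478 with edgeR and 8897 without het replicate 3. They were 6224 without het replicate 1, 6283 without het replicate 2 and 2377 with a mean of at least 50.

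Of the 9 called copies, the 2 with a het mean of at least 10 were the 4391-bp copy of the intron and a 616-bp copy upstream (95413774 to 95414389). The latter had 20.0, 26.9 and 10.5 normalized counts in het, against 63.0, 99.8 and 157 in KO. Its limma log2 difference was 2.41 (SE 0.51, adjusted p 0.00724), and neither copy lost its call in any alternative in which it was tested. Without het replicate 3 the log2 differences of these copies were 4.08 and 2.05.

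The other 7 called copies passed the filter on low values only through KO, so they are described here by their values and no position is read from their calls. Near the upstream copy, the 301-bp copy had 6.33, 3.37 and 1.92 normalized counts in het and 75.4, 59.6 and 79.5 in KO. The 317-bp copy had 6.33, 1.12 and 0 in het, against 63.0, 25.5 and 34.2 in KO. A 376-bp copy on the minus strand (95407146 to 95407521) had 1.05, 0 and 0 in het and 14.3, 27.9 and 20.5 in KO, at least 6.70-fold higher against a floor of 3 reads per library. In all of them the genotypes did not overlap, as in 9.24% of all listed copies. Their choice by a call that rests on high KO values makes this likely.

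Within the intron, a 321-bp copy (95396034 to 95396354) had no read in het and 16.2, 30.2 and 18.8 normalized counts in KO, at least 6.96-fold higher. Beyond the 3′ end, a 1483-bp copy (95379420 to 95380902) had 4.22, 0 and 0 in het, against 37.2, 89.0 and 70.1 in KO. A 380-bp copy next to it (95380903 to 95381282) had 4.22, 0 and 0 in het and 24.8, 22.4 and 13.7 in KO. A 368-bp copy (95375572 to 95375939) had 1.05, 4.49 and 0.958 in het and 28.6, 18.6 and 34.2 in KO. For 5 of these 7 copies the limma call was lost when single libraries were left out. Each library except het replicate 3 ended at least 1 call, and the 301-bp and 1483-bp copies kept theirs. Without het replicate 3 the log2 differences of the 7 ran from 3.03 to 4.77.

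Of the 9 copies called higher, 8 lay on the plus strand, opposite to the gene, as did 33 of the 55 listed copies. The strand given is that of the inserted element. Whether reads were counted by strand is not given in the sources used here, so it does not show the strand of the RNA.

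**Figure D3:**
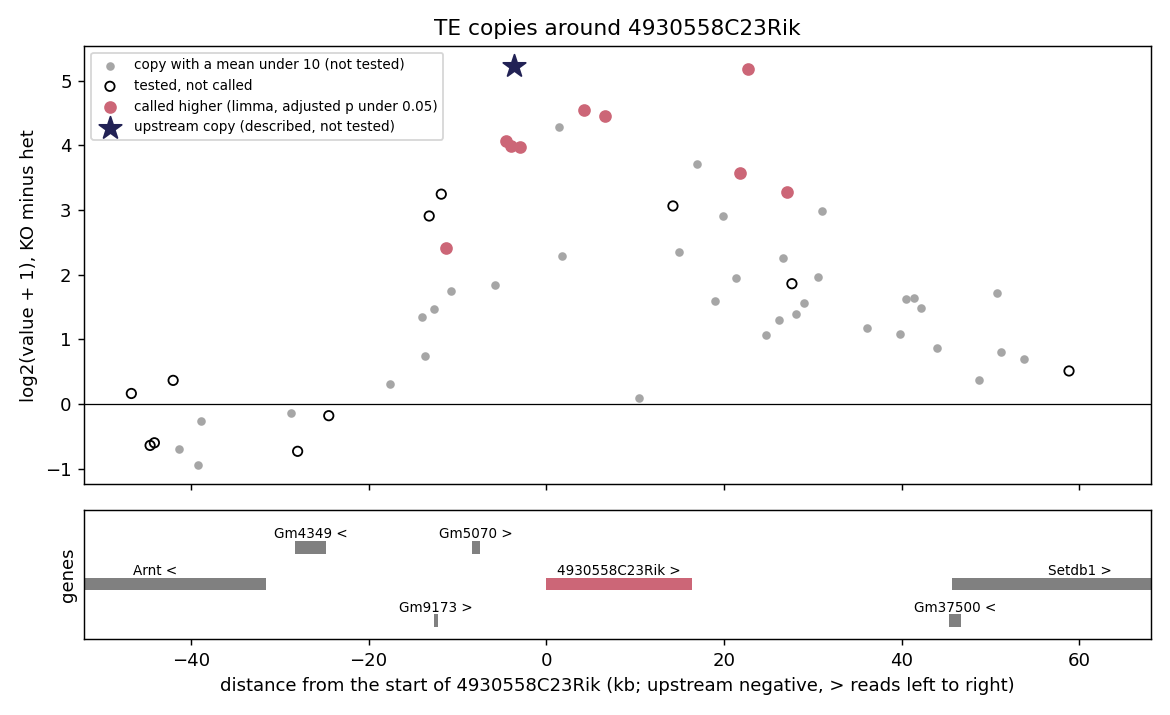
Difference of log2(value + 1) between KO and het for the 56 listed TE copies, by distance in kb of the copy's centre from the start of 4930558C23Rik, with annotated genes below. Copies called higher are marked, and 7 of these 9 had a het mean under 10. The upstream copy is the star at 5.23, and the copies on the side of Gm4349 and Arnt lie near or below 0.

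The differences of the copies are given next by stretch of the window. Of 9 copies beyond the start of Gm4349, 2 had a positive log2 difference. Limma called 0 of the 5 tested, a count near the background of 15.6% higher and 0.735% lower. The median of the 9 was -0.60, and in 2 of them the KO libraries all lay below the het libraries, as in 6.75% of all listed copies. In the 13 other copies between the start of 4930558C23Rik and Gm4349, 12 differences were positive, with a median of 1.85. All 7 in the intron were positive, with a median of 3.06, as were all 21 between the 3′ end and Setdb1, with a median of 1.63. On the side of Setdb1 all 5 were positive, with a median of 0.70, and the 1 tested copy was not called (limma adjusted p 0.699). From Setdb1 to Gm4349 many copies had few or no het reads. A copy with no het read cannot have a negative difference, so these signs are description only and were not tested. Of the 55 copies, 35 had a mean under 10. The median over all listed copies was -0.07. Without het replicate 3 the medians were -0.79 beyond the start of Gm4349, 2.05 upstream of the gene, 2.38 in the intron, 1.63 beyond the 3′ end and 1.29 on the side of Setdb1, and the intronic differences were not all positive, the lowest being -0.31.

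Summed TE reads differed by the highest ratio, 28.0, in the intron. In reads per 1000000 gene reads, the copies between the start and Gm4349, upstream copy included, stood at 2.03 ± 0.493 (het) and 25.2 ± 4.48 (KO; SD, n = 3). The intron had 0.509 ± 0.280 and 14.2 ± 2.31, and the stretch between the 3′ end and Setdb1 had 0.704 ± 0.145 and 8.87 ± 1.63 (SD, n = 3). In each of these stretches every KO library was above every het library. The whole TE table was separated too on this scale, where the het libraries averaged 7.09 ± 1.43 TE reads for every 100 gene reads and the KO libraries 10.5 ± 2.25 (SD, n = 3), a ratio of 1.48. On the side of Gm4349 and Arnt the values were 3.63 ± 0.488 and 3.23 ± 0.415 (SD, n = 3) and overlapped. On the side of Setdb1 they were 0.812 ± 0.305 and 1.51 ± 0.341 (SD, n = 3), with a gap from 1.04 in the highest het library to 1.15 in the lowest KO library. That ratio of 1.86 is near the 1.48 of the whole table. Without het replicate 3 the ratios were 13.9 upstream, 21.6 in the intron, 12.8 beyond the 3′ end, 0.903 on the side of Arnt and 2.01 on the side of Setdb1. These sums hold copies that the gene was picked beside, so they are given without a test.

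**Figure D4:**
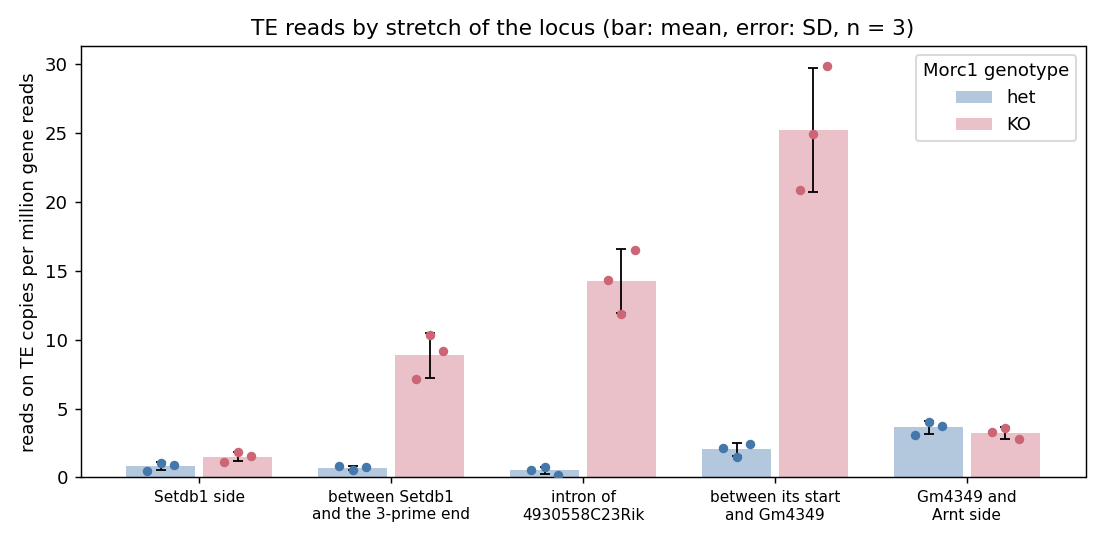
Reads on TE copies per 1000000 gene reads in 5 stretches of the locus; bars are means of 3 libraries, errors are SD and points are libraries. KO lies far above het in the 3 middle stretches, at 8.87 to 25.2, and overlaps het beyond Gm4349.

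The genes whose pattern over the 6 libraries was most like that of 4930558C23Rik were found by the root mean square difference of log2(value + 1), after each gene was centred on its own mean. At a pseudocount of 1 the closest were Gm29066 (0.27), Vmn1r14 (0.30), Tmc2 (0.35), Sult2a5 (0.37) and Gm19092 (0.37). Tmc2, known as a channel gene of inner ear hair cells, had 73.4, 35.7 and 55.6 normalized counts in het and 1252, 1870 and 1908 in KO. Sult2a5, a sulfotransferase gene, had 15.3, 11.6 and 13.7 in the het libraries, against 781, 414 and 998 in KO. The lincRNA Gm29066, the vomeronasal receptor gene Vmn1r14 and the processed pseudogene Gm19092 had no read in het and between 22.8 and 39.3 normalized counts in the KO libraries. Their log2 differences, up to 5.11 for Vmn1r14, and their places in this list rest on the pseudocount of 1. With pseudocounts of 0.1 and 10, tried after the data were seen, 2 of the 5 genes remained among the closest 5: Tmc2 ranked 1 and Sult2a5 ranked 2 at both. Gm29066, Vmn1r14 and Gm19092 then ranked between 111 and 166. These genes lie on chromosomes 5, 6, 2, 7 and 7.

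The other cortexin genes listed in the table were looked up after these results were seen, and none was called. Ctxn1 had 1722 ± 304 normalized counts in het and 2019 ± 468 in KO, and Ctxn3 had 152 ± 70.6 and 127 ± 63.6 (SD, n = 3). Both overlapped between genotypes (limma adjusted p 0.929 and 0.954). Ctxn2 was near the low end in all libraries, at 9.32 ± 1.01 and 9.41 ± 4.92 (SD, n = 3), and was not tested. Per length, 4930558C23Rik in KO at 70.4 was above Ctxn1 in KO at 54.0, while in het it was far below Ctxn1 at 47.5.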

How the data were processed

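Per the name of the deposited gene table, its values are a signal scaled with DESeq2: reads over a size factor for the library, here called normalized counts. The deposited TE table holds a like signal per copy, with factors of its own; its stage was taken from its name. The submitters' processing notes list HISAT2 2.1.0, featureCounts 1.5.2 and DESeq2 1.26.0, and the builds mm10 and GRCm38; strand setting, repeat annotation and the handling of reads with several matches are not given in the sources used here. In every column 100% of values were whole multiples, within 0.01, of the value of 1 read, which gave the reads used for densities, ratios and count tests; in KO replicate 1 the gene step is so near 1 that the automatic check of this could not be applied. A library held 28363683 to 32816861 gene reads and 1974504 to 3703419 TE reads; the reads carry no molecular identifiers, so floors cover counting error only.

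The test was limma 3.58.1 under R 4.3.3, two-sided, with lmFit and a trended eBayes, for features whose mean reached 10. It used log2(value + 1), which understates folds of low features. P-values were adjusted by Benjamini-Hochberg over the whole table, and the test was checked on simulated data for recovery of known changes. Differences given without a test are of mean log2(value + 1). Alternatives used edgeR 4.0.16, DESeq2 1.42.0 and other settings. On recovered reads edgeR called 121 genes higher and 8 lower, and 6478 copies higher and 356 lower. Of the listed genes, 35560 matched GENCODE M21.

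The gene, the window and the lists were chosen with earlier results of these data known. Named were the gene, Morc1, all neighbours within 100 kb, the upstream copy, the called copies and the 5 genes most alike over 6 libraries. The plan to name every copy within 10 kb of the gene was not carried out, and the uncalled ones appear only in summaries by stretch. The cortexin genes and long copies were added later. A planned search for listed copies with at least 80% sequence identity to the upstream copy was not run, since no genome sequence was used here.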

Additional observations from a re-analysis of the deposited data

How the results depend on the processing

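The log2 difference of 4930558C23Rik (5.45) was 5.13 with a pseudocount of 10 and ran from 5.33 to 5.56 when single libraries were left out. That of the upstream copy (5.23) was 4.25 with a pseudocount of 10, 4.86 after quantile normalization and 5.55 with the gene size factors, and ran from 5.11 to 5.4 when single libraries were left out. The number of window copies called higher (9) was 2 with a mean of at least 50, where fewer copies were tested, and between 6 and 13 in the other alternatives; it ran from 6 to 9 when single libraries were left out. Over all copies the counts were 2377 higher and 133 lower with a mean of at least 50, beside 7745 and 366. When single libraries were left out, 4463 to 8897 of all tested copies were called higher. Lower copies were 815 with DESeq2, 607 with a pseudocount of 10 and 204 with one of 0.1. Over all genes, 112 were called higher; the count was 400 with DESeq2, 177 and 70 with pseudocounts of 10 and 0.1, and 15 to 107 when single libraries were left out. No neighbour was called in any alternative run, nor among the 22 tested within 200 kb.

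Signs of uncalled neighbours reversed as follows. When single libraries were left out, Mindy1 ran from -0.23 to 0.16, Cers2 from -0.21 to 0.18, 6330562C20Rik from -0.21 to 0.62, Gm4349 from -0.31 to 0.12, Gm42672 from -0.32 to 0.37 and Ctsk from -0.13 to 0.71. Gm42672 was 0.048 with edgeR and 0.049 with DESeq2. The cause was not tested. Of 137 comparisons for the 9 called copies, 118 kept the call, 19 lost it and 0 reversed.

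Same-numbered het and KO libraries deviated together by correlations of 0.14, -0.16 and -0.04 over genes, so the numbers were not taken as pairs. With the replicate block, 64 genes, 6 window copies and 6640 of all tested copies were called higher. The differences of 4930558C23Rik and the upstream copy stayed at 5.45 and 5.23. Low het values limit the folds of single copies: 7 of the 9 had a het mean under 10.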

Other observations

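The longest listed copies of the window, the only 2 over 5 kb, had few reads. A 5372-bp copy between the 3′ end of 4930558C23Rik and Setdb1 (95364073 to 95369444) had 0, 2.24 and 9.58 normalized counts in het, against 5.72, 8.51 and 5.13 in KO. A 5772-bp copy upstream of the gene (95417555 to 95423326) had 0, 0 and 6.71 in het and 4.77, 1.55 and 0 in KO. Both overlapped between genotypes and had a mean under 10, so neither was tested.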
